A study of Homo sapiens with 12 samples.

Results

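The effect of everolimus and SGI-1027 given together was compared with the effect that the drugs had separately, gene by gene, in the human renal carcinoma line 786-O. The measure was the interaction, defined as the log2 fold change of the combination against DMSO minus the sum of the log2 fold changes of both single drugs against DMSO. All 12841 of the 17085 genes in the deposited table that passed an expression filter were included, and no gene was chosen by its response. RNA had been sequenced after 24 h of treatment, with 3 libraries in each of 4 groups. The groups were cells given dimethylsulfoxide (DMSO), everolimus (EVER), 1.5 µM SGI-1027 (SGI), or 5 µM everolimus with 1.5 µM SGI-1027 (COMB). The everolimus dose of the EVER group is not settled by the records, which give 5 µM for each library and in the methods of the study, and 10 µM in the description of the treatment. With 10 µM in EVER and 5 µM in COMB, the design would not be matched for dose, and an effect of dose and an interaction cannot be told apart. 786-O is a single established line, which lacks functional VHL, so these values describe 1 cell background.

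Everolimus is a rapamycin analogue that inhibits mTOR complex activity, the kinase activity that couples nutrients and growth factors to ribosome production, cap-dependent translation and growth, and that holds back autophagy and FOXO-dependent transcription. SGI-1027 is a quinoline-based inhibitor of DNA methyltransferases, the enzymes that place and copy the methyl mark on CpG sites. Where 2 drugs act on separate steps, their log2 fold changes are commonly compared with a simple sum. A combined change larger than this sum is described below as beyond the sum, a combined change in the same direction as both drugs but short of the sum as saturating, and a combined change opposite to the single drugs as reversed.

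Total counts per library lay between 37046231 and 41516976, and scaling factors between 0.99 and 1.01. Within groups, pairs of libraries had a chi-square per gene from 3.04 to 16.4, above the value of 1 that counting error alone gives, so that precision rested on the spread of 3 libraries rather than on depth. DMSO replicate 1 stood apart from the other DMSO libraries (10.1 and 12.9, against 3.56 between these) and SGI replicate 3 from the other SGI libraries (16.4 and 16.1, against 3.04), and their deviations from their group means correlated across genes (r = 0.43, a description). Without both, 1080 genes were above and 1427 below additivity, 159 were raised and 146 lowered beyond the sum, 952 were saturating raised, 767 saturating lowered and 122 reversed, beside the 1056, 1419, 135, 166, 934, 741 and 126 described below. Named genes and list members whose interaction no longer had an adjusted p under 0.05 without them are marked where they appear. Whether these were separate cultures is not recorded, and the p-values measure a spread that may be technical. All 10 listed markers of the renal carcinoma line were expressed, with a summed level from 9728 to 11460 CPM (counts scaled to library size). The 6 leukocyte markers summed to between 3.40 and 6.23 CPM, the 5 endothelial markers to between 0.457 and 1.19 CPM and the 4 erythroid markers in the table to at most 0.104 CPM. The 5 hepatocyte markers summed to between 237 and 329 CPM, nearly all of it SERPINA1 (9142 to 12945 counts), while ALB had at most 5 counts and APOA1 and TTR at most 1. The DMSO libraries enter both single-drug contrasts and, with the opposite sign, the interaction. A feature of the DMSO libraries that all treated libraries lack therefore cannot be told apart from saturation.

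Departures from the sum were called for 2475 genes, and for 1675 of them each drug alone and COMB had moved the gene in 1 direction with COMB short of the sum. An interaction with an adjusted p under 0.05 and a size of at least 0.5 on the log2 scale was called above additivity for 1056 genes (8.22% of genes tested) and below additivity for 1419 genes (11.1%), in edgeR's quasi-likelihood test over all 12 libraries. The median interaction of all genes was -0.01. Calls below additivity made up 57.3% of the calls, but 69.8% when libraries were scaled by their upper quartile, with 771 calls above and 1778 below. Beside the 1675 saturating genes, 186 were beyond the sum without a turn of direction, 115 were both beyond the sum and reversed, and 11 were reversed without being beyond the sum. For a further 423 genes a single drug moved the gene and COMB was not called against DMSO. The remaining 8 were moved in opposite directions by the drugs, and 57 fell into none of these patterns. For 6147 genes (47.9%) the 95% interval of the interaction lay wholly between -0.5 and 0.5, and 4033 of these genes were called changed by COMB. Just inside and just outside the size limit lay TEX2 (0.50202) and MMS22L (0.49972) above additivity, and DZIP1L (-0.5001) and GLI4 (-0.49958) below it.

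**Figure D1:**
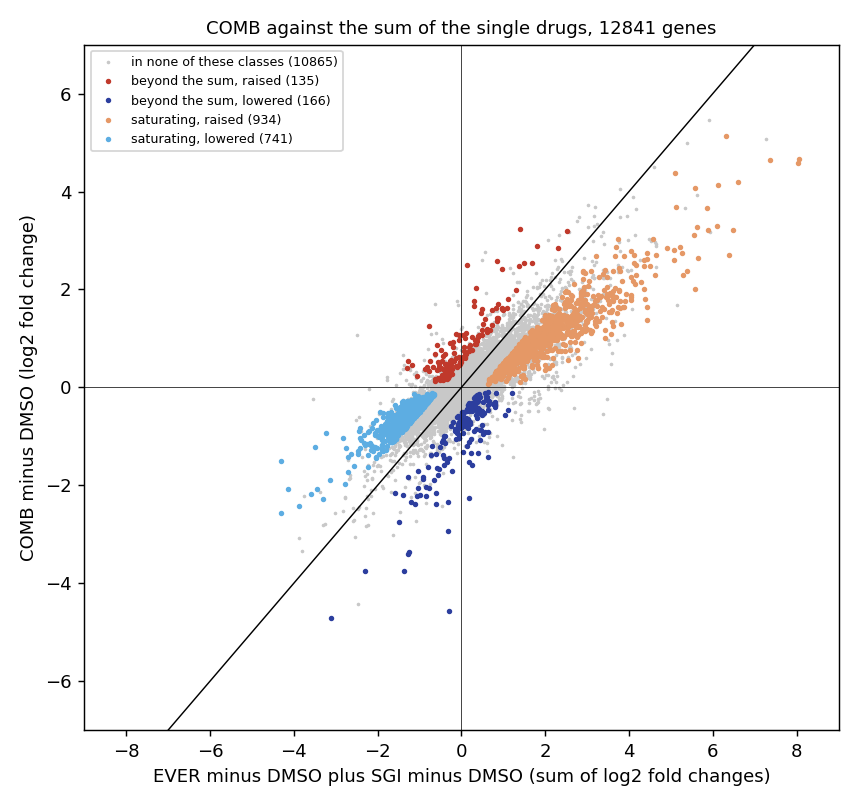
Log2 fold change of COMB against DMSO (vertical axis) plotted against the sum of the EVER and SGI log2 fold changes (horizontal axis) for each gene tested, with the line of equality. The 934 saturating raised genes lie below the line on the right, the 741 saturating lowered genes lie above it on the left, and 1 gene lies outside the axes.

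Among genes raised beyond the sum that averaged 50 counts or more and whose COMB libraries overlapped no other group, the largest excess belonged to ANGPTL4, a secreted inhibitor of lipoprotein lipase. This class held 135 genes (1.05% of those tested), each higher in COMB than in DMSO, EVER and SGI. ANGPTL4 stood at 3.09, 2.38 and 2.98 CPM in DMSO, 3.05, 3.32 and 2.51 in EVER, 6.83, 5.83 and 8.39 in SGI and 25.1, 26.5 and 28.2 in COMB. EVER overlapped DMSO, SGI-1027 raised it, and COMB stood above every other library, where the sum of both drugs gives 7.38 CPM. Its interaction was 1.84 ± 0.20 (SE), adjusted p = 6.67e-07. EMP1, an epithelial membrane protein, had a similar order, with 1.88, 1.63 and 2.88 CPM in DMSO, 2, 1.93 and 2.01 in EVER, 4.41, 4.17 and 3.77 in SGI and 11.5, 14.3 and 12.1 in COMB. Its COMB libraries did not overlap those of any other group, and its interaction was 1.72 ± 0.24 (SE), adjusted p = 1.33e-05. SPRY4, an intracellular inhibitor of receptor tyrosine kinase signalling, rose from 2.74, 2.38 and 1.33 CPM in DMSO and 3.23, 4.01 and 5.08 in SGI to 7.14, 9.43 and 9.91 in COMB, against 1.3, 1.42 and 1.59 in EVER (interaction 1.69 ± 0.32 (SE), adjusted p = 2.92e-04).

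The other named genes of this class were lowered by everolimus alone. SH2D5, an SH2-domain adaptor protein, stood at 11.1, 10.5 and 11.6 CPM in DMSO, 5.35, 6.23 and 5.2 in EVER, 8.72, 8.89 and 9.31 in SGI and 15.8, 15.6 and 17 in COMB. EVER was below DMSO without overlap, and COMB was above both, so that adding everolimus lowered the gene in the absence of SGI-1027 and raised it in its presence (interaction 1.82 ± 0.12 (SE), adjusted p = 2.07e-09). PPARGC1B, a transcriptional coactivator of mitochondrial and lipid genes, stood at 6.82, 5.97 and 5.47 CPM in DMSO, 2.4, 3.2 and 2.59 in EVER, 5.09, 5.85 and 5.62 in SGI and 7.84, 8.13 and 8.15 in COMB. SGI overlapped DMSO there, EVER was below both and COMB above both (interaction 1.69 ± 0.17 (SE), adjusted p = 4.34e-07). RGS4, which shortens G protein signalling, and SLCO4A1, an organic anion transporter, had interactions of 1.64 ± 0.21 (SE), adjusted p = 5.43e-06, and 1.44 ± 0.12 (SE), adjusted p = 2.62e-08. SLCO4A1 stood at 106, 94.5 and 89.8 CPM in DMSO, 60.2, 62.2 and 62.5 in EVER, 94.8, 91.4 and 118 in SGI and 164, 169.9 and 194 in COMB. Over the class, everolimus alone was called lower than DMSO for 71 of the 135 genes and higher for 5. SGI-1027 alone was called higher for 60 of the 135 and lower for 9. For 21 of them neither drug alone was called, and both drugs alone raised 4. Of all 12841 genes, everolimus alone lowered 3749 and raised 3488, SGI-1027 alone raised 4106 and lowered 3934, and both alone raised 2918. An interaction above the sum favours genes with low single-drug values, so the class counts describe genes that the definition chose.

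Genes of growth factor signalling recurred in this class. Of 45 tested genes for EGF receptor ligands, immediate early transcription factors and their feedback inhibitors, 9 were raised beyond the sum, against 1.05% of all genes. They were HBEGF (a ligand of the EGF receptor, interaction 0.72), the feedback inhibitors SPRY2 (0.65), SPRY4, DUSP5 (0.81) and DUSP7 (0.80), the transcription factors FOSL1, ETV5 (0.69) and KLF4 (0.58), and PHLDA1 (0.66). FOSL1, a subunit of the AP-1 factor, stood at 261, 219 and 211 CPM in DMSO, 139, 150.2 and 143 in EVER, 192, 192 and 269.5 in SGI and 310.3, 350.4 and 347 in COMB. Its interaction was 1.30 ± 0.14 (SE), adjusted p = 1.05e-06. The list did not move as a block, since 4 members, BTC, FOSB, JUNB and NR4A2, were saturating and raised (BTC and NR4A2 not called without DMSO replicate 1 and SGI replicate 3, adjusted p = 0.0919 and 0.0596), and EGR1 and NRG1 were lowered beyond the sum. EGR2, an immediate early factor, was raised by each drug but not called with both, at 1.93, 1.82 and 1.2 CPM in DMSO, 3.84, 3.3 and 3.74 in EVER, 2.88, 2.82 and 4.41 in SGI and 2.19, 1.96 and 1.58 in COMB (interaction -1.95 ± 0.30 (SE), adjusted p = 3.77e-05).

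CCND1 and E2F7, regulators of the cell cycle, were also raised beyond the sum. They were the 2 such members of 29 tested genes for G1 cyclins and CDK inhibitors, against 1.05% of all genes. Of the 29, 7 were saturating and lowered (5.77% of all genes) and 2 saturating and raised (7.27%). COMB was called lower than DMSO for 14 of the 29 and higher for 8, against 4283 and 4213 of all 12841 genes. CCND1, which encodes cyclin D1, stood at 321, 332 and 334 CPM in DMSO, 249, 241 and 254 in EVER, 461, 461 and 475 in SGI and 642, 673 and 668 in COMB. The groups were ordered EVER, DMSO, SGI, COMB with no overlap, and the interaction was 0.92 ± 0.05 (SE), adjusted p = 2.72e-10. E2F7, a repressor of E2F targets, stood at 54.3, 55.7 and 51.5 CPM in DMSO, 45.2, 45 and 43.8 in EVER, 54.1, 53.7 and 62.3 in SGI and 90.6, 95 and 101 in COMB. EVER was below DMSO and COMB above it without overlap, and the interaction was 1.02 ± 0.08 (SE), adjusted p = 2.57e-08. Of lipid synthesis genes, SCD, the desaturase of stearoyl-CoA, and FASN, the fatty acid synthase, were both below DMSO in EVER and above it in COMB. SCD measured 368 ± 30.4 CPM in DMSO, 270.3 ± 5.85 in EVER, 446 ± 17.1 in SGI and 536 ± 13 in COMB (SD, n = 3), with an interaction of 0.71 ± 0.07 (SE), adjusted p = 2.37e-07. FASN measured 446 ± 9.7, 351 ± 12.1, 427 ± 12.7 and 524 ± 23.8 CPM in the same order, with an interaction of 0.64 ± 0.06 (SE), adjusted p = 7.69e-08. They were 2 of 3 called above additivity among 28 tested genes of fatty acid synthesis, a share near the 8.22% of all genes, the other being ACSL1 (0.50) in the saturating lowered class. TRIB3, a pseudokinase induced by the amino acid response, and ANKRD1, a target of YAP, were further members, with interactions of 0.88 ± 0.07 (SE), adjusted p = 3.18e-08, and 1.08 ± 0.13 (SE), adjusted p = 2.02e-06. ANKRD1 rose from 4.83, 5.49 and 4.97 CPM in DMSO to 15.4, 16.7 and 17.9 in SGI and 38.8, 40.1 and 34.7 in COMB, with 5.92, 5.42 and 5.12 in EVER.

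**Figure D2:**
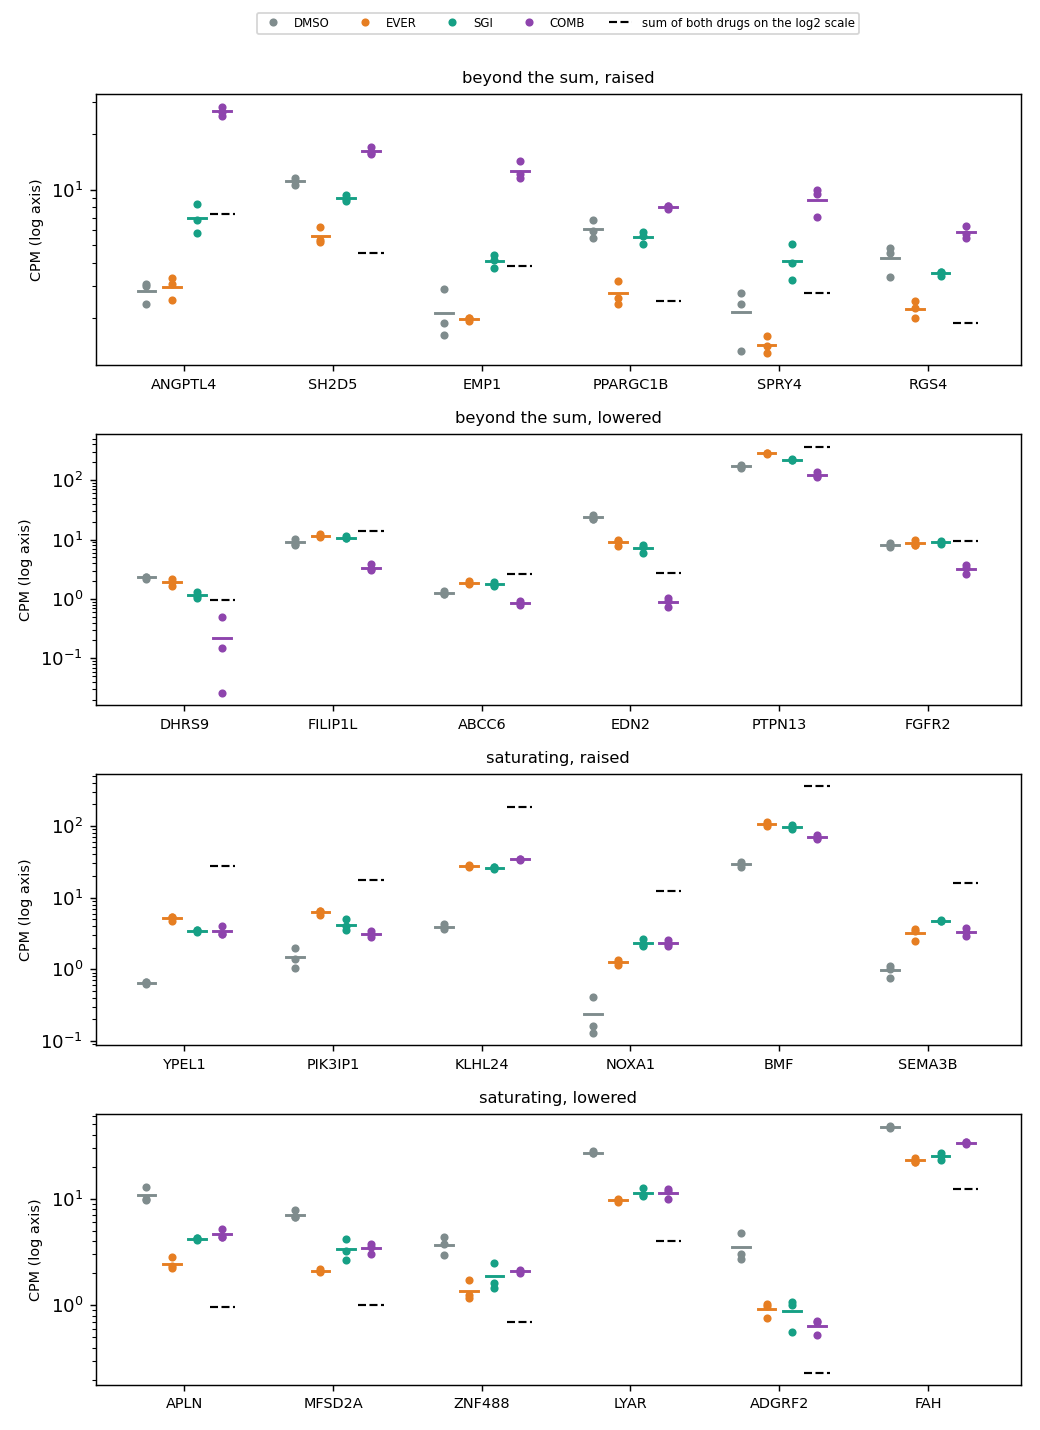
CPM (log axis) in each library for the 6 genes with the largest interactions in each of 4 classes among genes that averaged 50 counts or more and whose libraries did not overlap as the class requires, with points for libraries, solid bars for group means and a dashed bar for the COMB level that the sum of both drugs gives on the log2 scale. In the upper 2 panels COMB lies outside the range of all other libraries, and in the lower 2 panels the treated groups lie together, away from DMSO and short of the dashed bar.

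The 166 genes lowered beyond the sum (1.29% of those tested) included several that neither drug had lowered. Neither drug alone was called for 63 of them, EVER was called higher than DMSO for 50 and SGI for 38, and both drugs alone lowered 13. Of all 12841 genes, EVER was called higher for 3488 and SGI for 4106, and both drugs alone lowered 3098. An interaction below the sum favours genes with high single-drug values, so the class counts describe genes that the definition chose. EDN2, which encodes the vasoconstrictor endothelin 2, stood at 26.3, 22 and 22.5 CPM in DMSO, 9.92, 9.45 and 7.81 in EVER, 7.41, 8.07 and 5.92 in SGI and 0.938, 0.727 and 1.05 in COMB. Each drug lowered it without overlap with DMSO, and COMB was below the 2.74 CPM of the log2 sum (interaction -1.60 ± 0.21 (SE), adjusted p = 9.96e-06). On a linear scale the sum of both decreases would fall under 0, and the interaction of EDN2 turned positive there. DHRS9, a dehydrogenase that acts on retinol and steroids, stood at 2.39, 2.21 and 2.36 CPM in DMSO, 1.65, 1.95 and 2.19 in EVER, 1.31, 1.06 and 1.1 in SGI and 0.495, 0.15 and 0.0263 in COMB. SGI was below DMSO, COMB was below every other library, the spread within COMB was wide, and the value rests on few reads there (interaction -2.10 ± 0.52 (SE), adjusted p = 0.00308). FGFR2, a receptor for fibroblast growth factors, was at 8.05, 8.82 and 7.57 CPM in DMSO, 8.11, 8.21 and 9.69 in EVER, 9.13, 9.48 and 8.41 in SGI and 3.28, 3.74 and 2.65 in COMB. Neither drug alone changed it by a called amount (adjusted p = 0.522 for EVER and 0.274 for SGI), while COMB was lower (interaction -1.57 ± 0.17 (SE), adjusted p = 7.38e-07). That COMB did not overlap any other group was required for naming EDN2, DHRS9 and FGFR2.

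Contractile and matrix genes recurred in this class. ACTA2, smooth muscle actin, stood at 47, 47.8 and 41.3 CPM in DMSO, 37.3, 38.9 and 38 in EVER, 34.9, 38.6 and 37.6 in SGI and 15.9, 11.8 and 11.8 in COMB. Both drugs lowered it and COMB was below every other library (interaction -1.24 ± 0.12 (SE), adjusted p = 3.40e-07). MYL9 (-0.85), CAV1 (-0.61) and MRTFA (-0.54), the coactivator of serum response factor, were also lowered beyond the sum. With ACTA2 they were the 4 members of this class among 50 tested contractile, SRF and YAP genes, against 1.29% of all genes. Below additivity were 12 of the 50 in all (11.1% of all genes), and 6 of these 12 were saturating and raised (7.27%). Above additivity were 3 (8.22%). Among 63 tested matrix genes 6 were in this class, against 1.29% of all genes: COL1A1, COL8A1 (-0.60), VCAN (-0.62), MMP7 (-0.81), MMP24 (-0.75) and LOXL1 (-0.59). Of 42 tested TGF-beta and activin genes, 9 were below additivity (11.1% of all genes) and 2 above (8.22%). Lowered beyond the sum were 2 (1.29%), and 6 were saturating and raised (7.27%). Of the ligands, TGFB2 stood at 123, 119 and 126 CPM in DMSO, 198, 204 and 199 in EVER, 175, 170.2 and 174 in SGI and 114, 117 and 111 in COMB. It was raised by each drug and back under DMSO with both, with an interaction of -1.31 ± 0.05 (SE), adjusted p = 7.07e-12. TGFB3 was at 3.94, 2.45 and 3.54 CPM in DMSO, 4.27, 3.22 and 2.46 in EVER, 2.32, 2.09 and 2.23 in SGI and 1.15, 0.928 and 1.1 in COMB (interaction -1.07 ± 0.31 (SE), adjusted p = 0.00929). The antagonist NOG and the co-receptor TGFBR3 moved the other way, beyond the sum and raised, with interactions of 1.19 and 1.13.

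Direction was reversed for 126 genes (0.981% of those tested), of which 58 were higher and 68 lower in COMB than in DMSO. Of the 58 that were higher, 57 had been lowered by everolimus alone and 9 by SGI-1027 alone, with 8 lowered by both. Of the 68 that were lower, 53 had been raised by everolimus, 40 by SGI-1027 and 25 by both. Of all 12841 genes, everolimus alone lowered 3749 and raised 3488, and SGI-1027 alone lowered 3934 and raised 4106. The definition of reversal required at least 1 single drug to oppose COMB. Among genes that averaged 50 counts or more and whose COMB libraries did not overlap DMSO, those of the first kind with the largest interactions were SH2D5, PPARGC1B, RGS4 and SLCO4A1. Those of the second kind were FILIP1L, ABCC6, PTPN13 and TNFRSF19. FILIP1L, a cytoplasmic protein linked to cell migration, stood at 10.1, 8.23 and 8.59 CPM in DMSO, 11.4, 12.3 and 11.2 in EVER, 10.6, 10.4 and 11.4 in SGI and 3.88, 3.04 and 3.18 in COMB. Both drugs raised it, and COMB was below DMSO without overlap (interaction -2.06 ± 0.15 (SE), adjusted p = 6.50e-09). PTPN13, a non-receptor tyrosine phosphatase, stood at 162, 181 and 168 CPM in DMSO, 281, 283 and 285 in EVER, 225, 222 and 220.2 in SGI and 136, 115 and 118 in COMB. No 2 groups overlapped, and the interaction was -1.58 ± 0.08 (SE), adjusted p = 4.91e-11. TNFRSF19, a receptor of the TNF family, was raised by everolimus only, from 13.8, 15.2 and 15 to 20, 20.9 and 19 CPM, was at 14.4, 15 and 14.7 in SGI and fell to 8.18, 6.12 and 6.65 in COMB (interaction -1.51 ± 0.12 (SE), adjusted p = 3.06e-08). ABCC6, an efflux transporter, stood at 1.21, 1.38 and 1.2 CPM in DMSO, 1.76, 1.98 and 1.88 in EVER, 1.64, 1.95 and 1.74 in SGI and 0.782, 0.853 and 0.92 in COMB (interaction -1.62 ± 0.27 (SE), adjusted p = 9.98e-05).

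Saturation was the most frequent pattern. It held for 934 genes raised by both drugs and by COMB (7.27% of those tested) and for 741 genes lowered by all 3 treatments (5.77%). The median log2 fold changes of the raised genes were 0.78 in EVER, 0.87 in SGI and 0.85 in COMB, and those of the lowered genes were -0.62, -0.63 and -0.56. These medians describe genes that the definition chose. Of the 934 raised genes, COMB was called different from neither single drug for 566, above both for 47, and above 1 only and below none for 137. For 176 of the 934 it was below at least 1 drug and above none, and for 59 of these below both. Of the 741 lowered genes, COMB was called different from neither for 419, below both for 20, and below 1 only and above none for 66. For 235 of the 741 it was above at least 1 drug and below none, and for 64 of these above both. A p that misses the threshold does not show that COMB equalled the single drug. Counted from the side of the single drugs, 2918 genes were raised and 3098 lowered by both drugs alone. Of the raised genes, 1121 fell short of the sum and 4 went beyond it. Of the lowered genes, 853 fell short and 13 went beyond.

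Among the named saturating raised genes were KLHL24, PIK3IP1 and BMF, which FOXO factors are known to induce. YPEL1, a small zinc-binding nuclear protein, stood at 0.671, 0.656 and 0.628 CPM in DMSO, 4.67, 5.4 and 5.36 in EVER, 3.3, 3.55 and 3.54 in SGI and 3.96, 3.06 and 3.15 in COMB. All treated libraries were above DMSO, as the rule for naming these genes required. EVER was above COMB, and the sum would have been 27.3 CPM (interaction -3.01 ± 0.22 (SE), adjusted p = 1.01e-08). PIK3IP1, an inhibitor of phosphoinositide 3-kinase, stood at 2.01, 1.38 and 1.05 CPM in DMSO, 6.59, 6.45 and 5.78 in EVER, 5.02, 3.5 and 4 in SGI and 3.44, 2.83 and 3.13 in COMB. COMB was the lowest treated group, below EVER (adjusted p = 1.68e-04) but not by a called amount below SGI (adjusted p = 0.121), and the interaction was -2.50 ± 0.26 (SE), adjusted p = 6.63e-07. KLHL24, a substrate adaptor of a ubiquitin ligase, stood at 4.27, 3.69 and 3.85 CPM in DMSO, 27.2, 27 and 28.1 in EVER, 26.7, 27 and 25.1 in SGI and 34.7, 34.6 and 33.3 in COMB. COMB was above both drugs yet far under the 183 CPM of the sum (interaction -2.42 ± 0.09 (SE), adjusted p = 4.13e-12). BMF, a BH3-only protein that promotes apoptosis, stood at 29.2, 26.8 and 30.9 CPM in DMSO, 105, 112 and 101 in EVER, 91.6, 97.6 and 103 in SGI and 74.3, 65.3 and 68 in COMB. Here COMB was below each drug alone without overlap, and the interaction was -2.36 ± 0.09 (SE), adjusted p = 3.55e-12. NOXA1, an activator of an NADPH oxidase, and SEMA3B, a secreted semaphorin, were at low levels, with group means of 0.235 ± 0.155 and 0.967 ± 0.193 CPM in DMSO and 2.33 ± 0.239 and 3.33 ± 0.434 CPM in COMB (SD, n = 3). Their interactions were -2.37 ± 0.39 (SE), adjusted p = 8.29e-05, and -2.25 ± 0.25 (SE), adjusted p = 1.37e-06.

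As a group, 15 of 34 tested insulin receptor, FOXO and MXI feedback genes were below additivity, against 11.1% of all genes, and 1 was above. Of the 15, 12 were saturating and raised: FOXO3 (-0.53), FOXO4 (-0.87), PIK3IP1, TXNIP (-1.25), KLHL24, CCNG2 (-1.56), RBL2 (-0.61), MXD4 and the YPEL family members YPEL1, YPEL2 (-1.24), YPEL3 (-1.23) and YPEL5 (-0.73). The median log2 fold changes of the list were 0.44 in EVER, 0.54 in SGI and 0.60 in COMB, beside medians within 0.02 of 0 over all genes. The median interaction was -0.50. MXD4, a MAX partner that opposes MYC, stood at 32.1, 30.1 and 29.5 CPM in DMSO, 90.8, 82.6 and 88.6 in EVER, 74.7, 79.8 and 79.2 in SGI and 71.2, 65 and 60.7 in COMB. All treated libraries were above DMSO and COMB was the lowest of the treated groups (interaction -1.76 ± 0.08 (SE), adjusted p = 4.42e-11). CDKN1C, a CDK inhibitor, was also saturating, at 3.84, 4.98 and 4.61 CPM in DMSO, 16.5, 16.9 and 16.5 in EVER, 15.9, 15.5 and 13.2 in SGI and 16.1, 16.8 and 16.2 in COMB (interaction -1.75 ± 0.13 (SE), adjusted p = 6.76e-09).

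Of 48 autophagy genes tested, 28 were called higher and 10 lower in EVER, 27 higher and 11 lower in SGI, and 28 higher and 10 lower in COMB. Of all 12841 genes, 3488 were called higher and 3749 lower in EVER, 4106 and 3934 in SGI, and 4213 and 4283 in COMB. Saturating and raised were 12 of the 48, against 7.27% of all genes, and 1, ATG3, was saturating and lowered, against 5.77%. The median was 0.32 in EVER, 0.26 in SGI and 0.28 in COMB on the log2 scale. GABARAPL1, a member of the ATG8 family that coats autophagosomes, stood at 35.7, 37.7 and 38.3 CPM in DMSO, 85.5, 84.9 and 79.2 in EVER, 66.2, 68.1 and 66.6 in SGI and 53.8, 50.7 and 50 in COMB. The order EVER, SGI, COMB, DMSO held without overlap, and the interaction was -1.54 ± 0.07 (SE), adjusted p = 1.74e-11. BNIP3L, a mitophagy receptor, stood at 47.9 ± 2.68 CPM in DMSO, 98.2 ± 1.75 in EVER, 88 ± 3.92 in SGI and 95.5 ± 2.7 in COMB (SD, n = 3), with an interaction of -0.92 ± 0.07 (SE), adjusted p = 8.95e-09. ULK1, the kinase that starts autophagy, had an interaction of -0.78 ± 0.11 (SE), adjusted p = 1.73e-05. The others were ATG13 (-0.61), ATG14 (-0.59), ATG16L2 (-0.63), RB1CC1 (-0.57), WIPI1 (-0.57), WDR45 (-0.87), MAP1LC3B2 (-0.54), GABARAP (-0.56) and NBR1 (-0.63). MAP1LC3B2 is a near copy of MAP1LC3B, and reads may have been assigned to either. It was not called without DMSO replicate 1 and SGI replicate 3 (adjusted p = 0.0922).

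Extracellular matrix genes formed a larger saturating group. Of 63 tested, 26 were below additivity (11.1% of all genes) and 2 above (8.22%), and 17 were saturating and raised (7.27%), with medians of 0.42 in EVER, 0.56 in SGI and 0.54 in COMB. THBS1, thrombospondin 1, had mean levels of 2321 ± 94.6 CPM in DMSO, 3655 ± 38.4 in EVER, 4071 ± 162 in SGI and 2650.0 ± 80.8 in COMB (SD, n = 3). COMB returned most of the way to DMSO, and the interaction was -1.27 ± 0.05 (SE), adjusted p = 9.27e-12. COL4A1, a basement membrane collagen, stood at 351, 355 and 378 CPM in DMSO, 705, 688 and 706 in EVER, 670.5, 656 and 656 in SGI and 585, 564 and 558 in COMB (interaction -1.17 ± 0.05 (SE), adjusted p = 1.38e-11). THBS3 was raised to a like level by all 3 treatments, at 6.63, 5.76 and 4.5 CPM in DMSO, 17.4, 17.3 and 18.3 in EVER, 19.6, 18.6 and 20.4 in SGI and 21.2, 18.9 and 20.8 in COMB (interaction -1.59 ± 0.13 (SE), adjusted p = 4.28e-08). Fibronectin (FN1) had an interaction of -0.76 and COL4A2 of -0.88. Among vasoactive peptides, EDN1, endothelin 1, rose from 5.8, 5.27 and 6.62 CPM in DMSO to 20.6, 20.1 and 19.8 in EVER, 21.2, 22.5 and 23.8 in SGI and 18.6, 15.7 and 16.2 in COMB. Its interaction of -2.20 ± 0.12 (SE), adjusted p = 2.72e-10 was of the saturating kind, whereas EDN2 was lowered beyond the sum.

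Inflammatory genes were mixed. Of 45 tested NF-kB cytokines and chemokines, 13 were below additivity, against 11.1% of all genes, and 4 above, a share near the 8.22% of all genes. VCAM1, an adhesion molecule for leukocytes, was at 379.5 ± 30.5 CPM in DMSO, 578 ± 7.24 in EVER, 664 ± 9.44 in SGI and 444 ± 8.96 in COMB (SD, n = 3), with an interaction of -1.19 ± 0.06 (SE), adjusted p = 2.59e-10. CCL2, a monocyte chemokine, was raised by each drug (log2 fold changes 0.52 and 0.68), was not called in COMB (0.20), and was below additivity (adjusted p = 4.53e-06). CXCL10 had an interaction of -1.47 ± 0.33 (SE), adjusted p = 0.00128. IL11 (-0.87), TNFSF10 (-0.51), CXCL5 (-0.83) and BCL3 (-0.68) were lowered beyond the sum, and CSF2 (0.57) was raised beyond it. NLRP3, an inflammasome sensor, was the member of 22 tested pyroptosis and inflammasome genes that was raised beyond the sum, against 1.05% of all genes. It rose from 4.25 ± 0.359 CPM in DMSO to 8.94 ± 1.61 in COMB (SD, n = 3), with an interaction of 1.04 ± 0.20 (SE), adjusted p = 3.28e-04. In the same list 5 members were saturating and raised, against 7.27% of all genes.

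On the lowered side of saturation, APLN, which encodes the peptide apelin, had the largest interaction among genes that averaged 50 counts or more and whose treated libraries did not overlap DMSO. It stood at 12.8, 9.69 and 9.87 CPM in DMSO, 2.32, 2.25 and 2.82 in EVER, 4.06, 4.31 and 4.28 in SGI and 4.35, 5.17 and 4.36 in COMB. EVER was the lowest group, COMB was above EVER (adjusted p = 6.48e-05), and the sum would have been 0.962 CPM (interaction 2.27 ± 0.19 (SE), adjusted p = 5.19e-08). MFSD2A, a transporter of lysophospholipids, stood at 7.78, 6.75 and 6.7 CPM in DMSO, 2.11, 2.2 and 2.04 in EVER, 2.65, 3.25 and 4.16 in SGI and 3.05, 3.51 and 3.79 in COMB. All treated libraries were below DMSO (interaction 1.78 ± 0.22 (SE), adjusted p = 4.75e-06). FAH, the last enzyme of tyrosine breakdown, stood at 47.2, 46 and 47.9 CPM in DMSO, 24.4, 22.1 and 22.2 in EVER, 27, 25.4 and 23.1 in SGI and 33.8, 32.6 and 33.8 in COMB. COMB was closer to DMSO than either drug was, without overlap (interaction 1.45 ± 0.09 (SE), adjusted p = 6.73e-10). ZNF488, a zinc finger repressor, had an interaction of 1.58 ± 0.31 (SE), adjusted p = 4.86e-04. ADGRF2, an adhesion G protein-coupled receptor, fell from 4.72, 3.04 and 2.72 CPM in DMSO to 0.704, 0.527 and 0.71 in COMB (interaction 1.46 ± 0.41 (SE), adjusted p = 0.00753). Without DMSO replicate 1 and SGI replicate 3 its interaction was 0.942 and not called (adjusted p = 0.0512). HK2, the hexokinase of glycolysis, was at 72.8 ± 3.58 CPM in DMSO, 31 ± 1.27 in EVER, 41.8 ± 2.22 in SGI and 46 ± 1.94 in COMB (SD, n = 3), with an interaction of 1.37 ± 0.08 (SE), adjusted p = 4.80e-10.

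Ribosome biogenesis had the largest share of saturating genes of the 35 gene lists. Of 84 tested genes, 61 were above additivity and none below, against 8.22% and 11.1% of all genes, and all 61 were in the saturating lowered class. Everolimus alone lowered 79 of the 84, SGI-1027 lowered 80 and COMB lowered 78, against 3749, 3934 and 4283 of all 12841 genes. The list's median log2 fold change was -0.63 in EVER, -0.59 in SGI and -0.53 in COMB, where the median sum of both drugs was -1.21, and the median interaction was 0.68. LYAR, a nucleolar protein and a named gene of the class, stood at 27.9, 26.6 and 26.7 CPM in DMSO, 9.92, 9.38 and 9.72 in EVER, 10.7, 10.6 and 12.6 in SGI and 11.9, 12.4 and 9.99 in COMB. EVER was the lowest group, SGI and COMB overlapped, and none overlapped DMSO, as the rule for naming required (interaction 1.50 ± 0.12 (SE), adjusted p = 2.73e-08). DHX37, a helicase of the small subunit processome, stood at 58.9, 62.4 and 61.1 CPM in DMSO, 24.7, 24.3 and 30.7 in EVER, 26.6, 27 and 24.4 in SGI and 30, 28.7 and 30.8 in COMB (interaction 1.39 ± 0.10 (SE), adjusted p = 1.06e-08). NOP16, a factor of large subunit assembly, stood at 34, 39.1 and 40.5 CPM in DMSO, 17.4, 15.1 and 14.9 in EVER, 18.3, 19.1 and 17.1 in SGI and 18.7, 20.5 and 18.6 in COMB (interaction 1.35 ± 0.11 (SE), adjusted p = 3.71e-08). RRP12 and RRS1, which serve subunit export and assembly, had interactions of 1.31 ± 0.07 (SE), adjusted p = 2.25e-10, and 1.22 ± 0.09 (SE), adjusted p = 1.64e-08. RRP12 and RRS1 were lowest in EVER, and their COMB libraries lay between SGI and DMSO. For the ribosomal proteins themselves, of 78 tested cytosolic ribosomal protein genes 2 were called above additivity and none below, against 8.22% and 11.1% of all genes. These were RPL17 and RPS26, whose processed copies make their counts uncertain. Under upper-quartile scaling 1 was called. The median was 0.06 in EVER, -0.06 in SGI and 0.03 in COMB.

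Several motifs were searched in the promoter windows of all genes, of the classes and of lists with enough called members. Only the E-box, the heat shock element and AP-1 are shown with sequences. The E-box CACGTG has the letters bound by MYC, MAX, MXD and MiT/TFE factors. Windows ran from 250 bases before to 50 bases after each annotated start in RefSeq (GRCh38.p14), and 10378 of the 12841 genes had at least 1. The E-box, searched on both strands, was found for 25 of the 52 called ribosome biogenesis genes with a window (48.1%), for 134 of 618 saturating lowered genes (21.7%), for 72 of 718 saturating raised genes (10%) and for 12.6% of all genes with a window. The share is a description of letters and not of binding. List members that were not called were not counted as a set, so the share does not separate called from uncalled members. The called ribosome biogenesis genes are also part of the saturating lowered class. The 4 stretches below are examples from called members whose match had 20 bases on each side before the start, with the E-box in capitals. Other called members may also have met this rule. IMP4 is at chr2:130342674-130342719 (plus strand), DDX21 at chr10:68956596-68956641 (plus strand), UTP18 at chr17:51260437-51260482 (plus strand) and NOP10 at chr15:34343281-34343326 (minus strand), and the matches begin 203, 31, 89 and 170 bases before the start.
IMP4: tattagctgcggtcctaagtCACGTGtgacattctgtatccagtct
DDX21: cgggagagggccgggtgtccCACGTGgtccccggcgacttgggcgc
UTP18: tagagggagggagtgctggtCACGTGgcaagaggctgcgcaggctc
NOP10: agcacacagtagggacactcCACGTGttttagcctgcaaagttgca
The genes encode assembly and modification factors of preribosomal RNA, with interactions of 1.09, 1.08, 0.66 and 0.51.

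Heat shock chaperones had the same pattern. Of 30 tested, 18 were saturating and lowered, against 5.77% of all genes. HSPA6 (2.02), which averaged under 50 counts, was raised beyond the sum, and HSPB8 (-0.59) was lowered beyond it. CRYAB (-1.10) was below additivity without a class, and not called without DMSO replicate 1 and SGI replicate 3 (adjusted p = 0.0639). The median was -0.67 in EVER, -0.69 in SGI and -0.70 in COMB, with a median interaction of 0.62. FKBP4, a co-chaperone of HSP90, stood at 268, 272 and 271 CPM in DMSO, 126, 126 and 122 in EVER, 121, 118 and 117 in SGI and 118, 119 and 120.0 in COMB. SGI and COMB overlapped, EVER lay just above them, all were below DMSO, and the interaction was 1.12 ± 0.05 (SE), adjusted p = 1.38e-11. HSPA1A (interaction 1.18 ± 0.35 (SE), adjusted p = 0.0115) has a near-identical copy, HSPA1B, and HSPE1 (interaction 1.03 ± 0.31 (SE), adjusted p = 0.0119) has processed copies, so that their counts are uncertain. The heat shock element, written as GAA, TTC and GAA with 2 bases between each, was searched on both strands and found for 6 of the 18 called chaperones with a window (33.3%) and for 0.501% of all genes with a window. Shown by the same rule and a mean of at least 50 counts, with every match in the stretch in capitals (3 overlapping ones in CHORDC1), HSPA8 is at chr11:123062334-123062386 (minus strand), CHORDC1 at chr11:90223077-90223129 (minus strand), HSP90AA1 at chr14:102087100-102087152 (minus strand) and HSP90AB1 at chr6:44247758-44247810 (plus strand), and the first matches begin 230, 60, 88 and 165 bases before the start.
HSPA8: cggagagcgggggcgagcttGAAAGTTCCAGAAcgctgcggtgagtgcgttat
CHORDC1: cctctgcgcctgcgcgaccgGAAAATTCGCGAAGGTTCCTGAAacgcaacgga
HSP90AA1: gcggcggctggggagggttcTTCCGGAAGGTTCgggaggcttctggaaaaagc
HSP90AB1: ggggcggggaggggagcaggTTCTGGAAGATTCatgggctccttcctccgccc
Their interactions were 0.72, 0.63, 0.59 and 0.53.

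In genes raised beyond the sum, the AP-1 letters TGANTCA were found for 21 of 110 genes with a window (19.1%), against 7.33% of all genes with a window and 7.38% of saturating raised genes. EMP1 is at chr12:13196531-13196577 (plus strand), F3 at chr1:94541956-94542002 (minus strand) and ANK2 at chr4:113049505-113049551 (plus strand). ANKRD1 is at chr10:90921256-90921302 (minus strand) and TM4SF19 at chr3:196338576-196338622 (minus strand). These 5 stretches are examples under the same rule, with every match in capitals (F3 has 2). Other genes that met the rule may have larger interactions. F3 encodes tissue factor and ANK2 an ankyrin.
EMP1: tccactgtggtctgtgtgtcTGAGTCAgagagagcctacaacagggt
F3: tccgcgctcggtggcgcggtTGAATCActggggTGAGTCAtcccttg
ANK2: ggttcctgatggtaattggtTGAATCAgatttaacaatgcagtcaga
ANKRD1: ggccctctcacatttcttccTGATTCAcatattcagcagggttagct
TM4SF19: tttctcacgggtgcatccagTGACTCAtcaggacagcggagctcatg
The first matches begin 175, 223, 128, 195 and 214 bases before the start, and the interactions were 1.72, 1.24, 1.21, 1.08 and 1.04. CpG content also differed in level between the classes, with a median ratio of observed to expected CpG of 0.539 for genes lowered beyond the sum, 0.689 for those raised beyond it, 0.756 for saturating raised, 0.875 for saturating lowered and 0.816 for all genes. These shares and ratios were not tested.

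Of 63 DNA replication genes tested, 57 were called lower in EVER, 58 in SGI and 48 in COMB, against 3749, 3934 and 4283 of all 12841 genes. Above additivity were 37, against 8.22% of all genes, and below it none, and 30 were saturating and lowered, against 5.77%. The median was -0.44 in EVER, -0.44 in SGI and -0.32 in COMB. MCM10, which acts in the activation of the replicative helicase, stood at 47.4, 50 and 46 CPM in DMSO, 22.9, 23.8 and 22.6 in EVER, 29.1, 25.9 and 30.3 in SGI and 25.4, 28.1 and 28.8 in COMB (above additivity, adjusted p = 1.43e-07). CDC6, a licensing factor, stood at 61.1, 64.6 and 64.9 CPM in DMSO, 36.2, 36 and 33.8 in EVER, 46.5, 47.4 and 43.7 in SGI and 46.9, 51.3 and 49.3 in COMB. EVER was the lowest group, and COMB and SGI overlapped (interaction 0.95 ± 0.07 (SE), adjusted p = 1.64e-08). ORC1, a subunit of the origin recognition complex, and RFC3, a clamp loader subunit, had interactions of 0.86 ± 0.08 (SE), adjusted p = 1.70e-07, and 0.80 ± 0.11 (SE), adjusted p = 1.71e-05. The maintenance methyltransferase DNMT1 (0.66) and its partner UHRF1 (0.67) belonged to the same class, and DNMT3A (-0.78) was saturating and raised. DTL (0.52), a substrate adaptor in replication control, was both beyond the sum and reversed. Of 74 mitotic genes tested, 14 were above additivity, against 8.22% of all genes, 13 of them saturating and lowered, and none below, with medians of -0.38 in EVER, -0.76 in SGI, -0.81 in COMB and -1.14 for the sum. NCAPH, a condensin subunit, had an interaction of 0.83 ± 0.07 (SE), adjusted p = 2.58e-08, and AURKB, a mitotic kinase, of 0.68 ± 0.07 (SE), adjusted p = 3.13e-07.

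**Figure D3:**
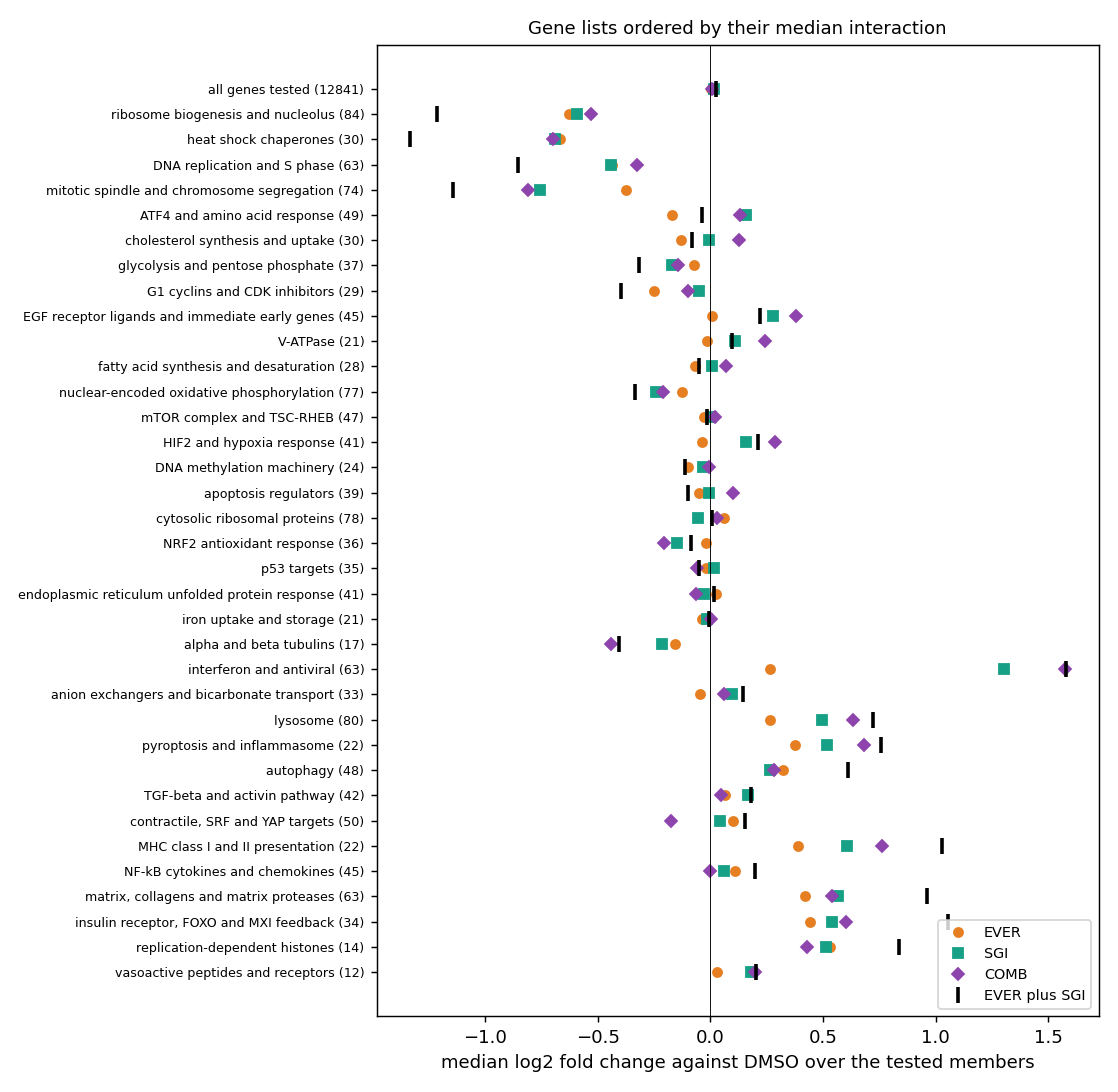
Median log2 fold change against DMSO over the tested members of 35 gene lists and over all genes, for EVER, SGI, COMB and the sum of EVER and SGI, with lists ordered by their median interaction and the number of members in brackets. For ribosome biogenesis, heat shock chaperones and DNA replication the COMB diamonds lie beside the single drugs, whereas for interferon genes COMB lies on the mark of the sum.

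Interferon-stimulated genes lay near the sum as a list. Of 63 tested, 60 were higher in COMB than in DMSO, against 4213 of all 12841 genes. The list's median log2 fold change of 1.57 in COMB met the median sum of 1.58, with 0.27 in EVER and 1.30 in SGI. Members called were 6 above and 9 below additivity, against 8.22% and 11.1% of all genes, and 3 above under upper-quartile scaling. Raised beyond the sum were OAS3 (0.55), IFI6 (0.56), IFI27 (0.68), USP18 (0.69) and CMPK2 (0.84). Saturating and raised were MX1 (-0.65), IFIT2 (-0.58), IFITM2 (-0.67), DHX58 (-0.99), STAT2 (-0.60), GBP1 (-0.76), TRIM22 (-0.53) and STING1 (-0.78). MX1 and TRIM22 were not called without DMSO replicate 1 and SGI replicate 3 (adjusted p = 0.103 and 0.169). CMPK2, a nucleotide kinase of the antiviral response, stood at 1.28 ± 0.322 CPM in DMSO, 1.12 ± 0.102 in EVER, 4.76 ± 0.665 in SGI and 7.43 ± 0.419 in COMB (SD, n = 3), with an interaction of 0.84 ± 0.25 (SE), adjusted p = 0.0113. DHX58, a cytosolic RNA sensor, stood at 1.21 ± 0.238, 2.91 ± 0.162, 6.37 ± 0.759 and 7.75 ± 0.629 CPM in the same order, with an interaction of -0.99 ± 0.21 (SE), adjusted p = 8.77e-04. GBP2, a guanylate-binding protein, was the member lowered beyond the sum (-0.97), and CGAS (0.80), the sensor of cytosolic DNA, was saturating and lowered.

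Lysosomal genes also stayed near the sum. Of 80 tested, 62 were higher in COMB than in DMSO, against 4213 of all 12841 genes. Above additivity were 3 (8.22% of all genes) and below it 11, a share near the 11.1% of all genes. The list's median was 0.63 in COMB beside 0.72 for the sum. CTSO, a cathepsin, was the called member furthest short of it, at 2.67 ± 0.303 CPM in DMSO, 9.79 ± 0.246 in EVER, 9.33 ± 1.28 in SGI and 10.9 ± 0.693 in COMB (SD, n = 3), with an interaction of -1.65 ± 0.16 (SE), adjusted p = 1.75e-07. GAA, the acid glucosidase, had an interaction of -1.14 ± 0.14 (SE), adjusted p = 2.39e-06. MCOLN1 (0.61), a calcium channel of the lysosome, and RRAGD (0.65), a Rag GTPase, were raised beyond the sum. MITF, a transcription factor of lysosomal and pigment genes, was reversed, at 23.1 ± 0.32 CPM in DMSO, 28 ± 1.14 in EVER, 27.2 ± 1.19 in SGI and 16.1 ± 1.54 in COMB (SD, n = 3), with an interaction of -1.03 ± 0.10 (SE), adjusted p = 1.30e-07. Of 21 V-ATPase genes tested, 1 was called above additivity, ATP6V0B (0.58), and none below, against 8.22% and 11.1% of all genes. Of 77 nuclear genes of oxidative phosphorylation 5 were called, all saturating and lowered, a share near the 5.77% of all genes. Under upper-quartile scaling 3 of the 77 were above additivity.

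The ATF4 amino acid response was split. Of 49 tested genes everolimus lowered 29 and raised 9, SGI-1027 raised 22 and lowered 12, and COMB raised 25 and lowered 10. Of all 12841 genes everolimus lowered 3749 and raised 3488, SGI-1027 raised 4106 and lowered 3934, and COMB raised 4213 and lowered 4283. Above additivity were 10 members, against 8.22% of all genes, and 1, SLC7A11 (-0.55), was below it. Under upper-quartile scaling 7 were above and 3 below. TRIB3 and PSAT1 (0.58) were raised beyond the sum, while VARS1, a valyl-tRNA synthetase, was lowered by each treatment, at 283, 283 and 282 CPM in DMSO, 143, 147 and 148 in EVER, 145, 148 and 145 in SGI and 143, 138 and 146 in COMB (interaction 0.92 ± 0.05 (SE), adjusted p = 2.59e-10). SHMT2, which feeds serine into mitochondrial folate metabolism, was lowered by each drug and not called in COMB, at 210.0 ± 5.85 CPM in DMSO, 155 ± 4.55 in EVER, 188 ± 14.7 in SGI and 216 ± 9.43 in COMB (SD, n = 3), with an interaction of 0.64 ± 0.07 (SE), adjusted p = 1.19e-06. The 35 lists together held 1412 tested genes, and 37 of the 135 genes raised beyond the sum, 28 of the 166 lowered beyond it, 108 of the 934 saturating raised, 166 of the 741 saturating lowered and 26 of the 126 reversed genes were in at least 1 list. The functions of the other called genes are not described by these lists.

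**Figure D4:**
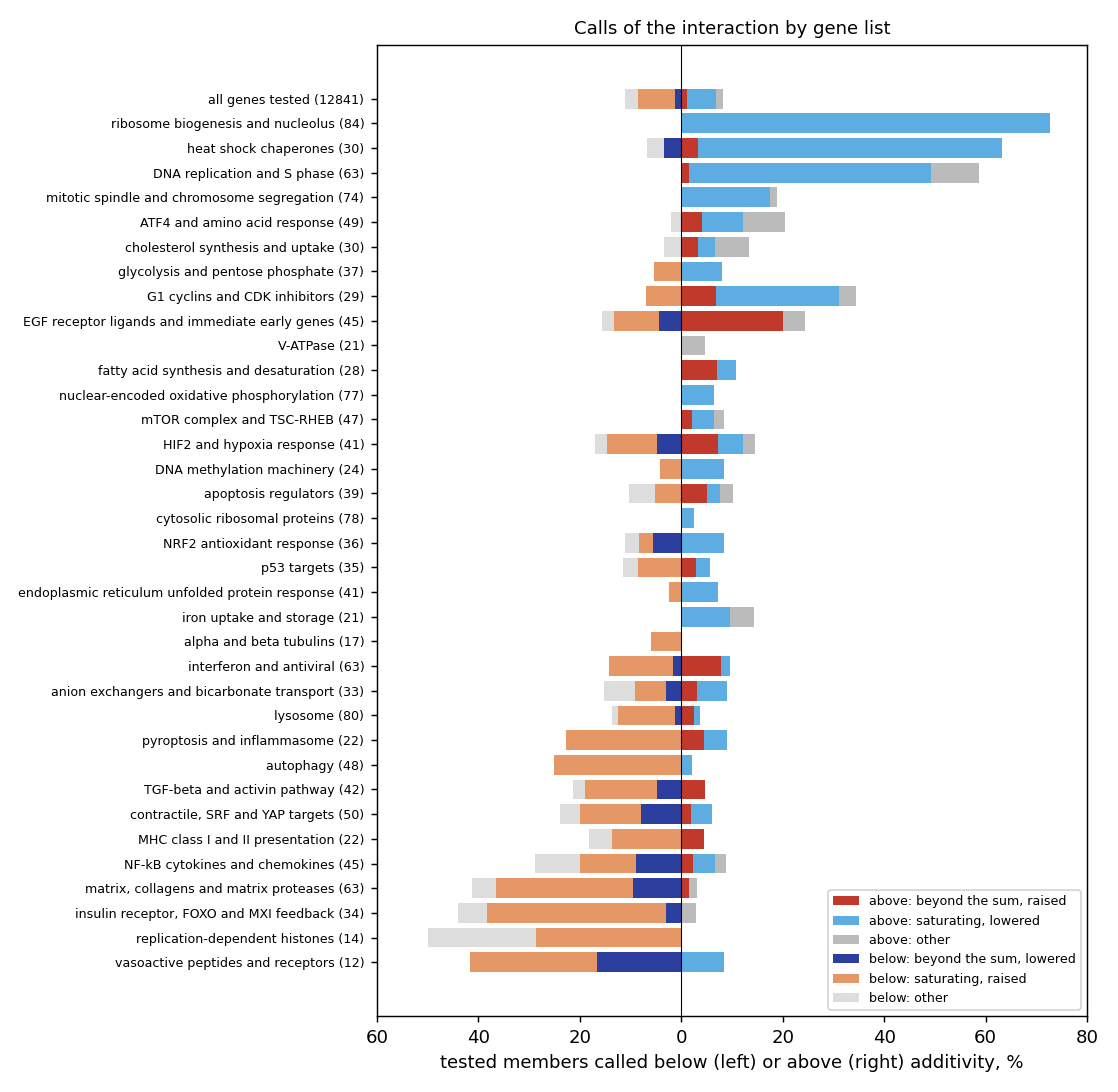
Share of the tested members of each gene list (bars, %) called below additivity (left) and above additivity (right), coloured by class, in the order of the list medians. Ribosome biogenesis has 61 of 84 members to the right and none to the left, and the insulin receptor and FOXO list has 15 of 34 to the left.

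The classes depend on the scale on which effects are summed. When effects were summed on the linear scale of CPM, with a size limit of 0.25 of a gene's mean, 739 of the 741 saturating lowered genes, 783 of the 934 saturating raised genes, all 135 genes raised beyond the sum and 134 of the 166 lowered beyond it were called on the same side. For a gene lowered by both drugs the linear sum always lies below the log2 sum. The side of the saturating lowered genes was therefore fixed in advance, and their count does not test the choice of scale. Between genes called on both scales the sign turned for 3. On the linear scale 2066 genes were above and 1647 below additivity, so that calls below additivity outnumbered those above on the log2 scale and not on the linear one.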

How the data were processed

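RNA of 786-O cells was sequenced in 12 libraries, 3 each of DMSO, EVER, SGI and COMB. The deposited tables held raw read counts per gene and FPKM per gene, both made by the authors. Aligner, counter and annotation are not given in the sources used here. The submitters' processing notes name the mouse builds GRCm38 and mm10, although 12820 of 12841 tested symbols (99.8%) are human RefSeq symbols or synonyms. The records also differ on the RNA and library kits, so strand use is not settled, and reads of overlapping genes cannot be told apart.

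Counts were fitted with edgeR 4.0.16 in R 4.3.3 (TMM scaling, filterByExpr by group, quasi-likelihood test, all 12 libraries in 1 fit). P-values were adjusted by Benjamini-Hochberg across the 12841 genes. CPM values are TMM-scaled, and the sum of both drugs in CPM was computed on the log2 scale. An interaction was called at an adjusted p under 0.05 and a size of at least 0.5. A gene was beyond the sum when COMB also differed in that direction from DMSO, EVER and SGI, saturating when all treatments moved it one way and the interaction opposed them, and reversed when COMB opposed a single drug and no single drug was called in the direction of COMB. Each of the further comparisons used an adjusted p under 0.05.

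Named genes were the 6 with the largest interaction in each beyond and saturating class and the 4 in each direction of reversal, with a mean of at least 50 counts and libraries that did not overlap as the class requires, then up to 4 called members of each list. Further members given with their interaction only, and EGR2, were chosen after their values were seen. Classes, gene lists and named genes were chosen with earlier results of these data known. Alternatives were DESeq2 1.42.0, upper-quartile scaling, other filters, limma 3.58.1 on log2(FPKM + 1) and log2(FPKM + 0.1), the linear scale, other size limits, a replicate block and leaving out each library. Leaving out DMSO replicate 1 and SGI replicate 3 together was chosen after seeing the data.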

Additional observations from a re-analysis of the deposited data

Results flagged for a closer look

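The effect of one drug took opposite directions without and with the other, each called at an adjusted p under 0.05 in edgeR's quasi-likelihood test. Everolimus lowered 336 genes alone that it raised in the presence of SGI-1027, and raised 361 alone that it lowered in its presence. SGI-1027 lowered 423 genes alone that it raised in the presence of everolimus, and raised 410 alone that it lowered in its presence. Together these were 1161 genes. The interaction is the difference between a drug's effect with and without the other drug, so choosing opposite calls selects for a large interaction. Its adjusted p under 0.05 for all 1161 genes is therefore no separate support. It also met the size limit for 787, and 420 were saturating. The contrasts share libraries, so the counts are not independent of each other.

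Examples chosen after their values were seen were SH2D5, RGS4 and SLCO4A1 for the first direction of everolimus. KIF12, a kinesin, was raised from 10.1 ± 0.782 CPM in DMSO to 22.2 ± 1.61 in EVER and 23.4 ± 2.16 in SGI and stood at 10.1 ± 1.77 in COMB (SD, n = 3). APLN and MFSD2A, described above, were lowered by SGI-1027 alone and raised by it in the presence of everolimus.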

How the results depend on the processing

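Counts are given in the order above additivity, below additivity, beyond raised, beyond lowered, saturating raised, saturating lowered and reversed. With no size limit they were 3028, 2833, 342, 340, 1757, 2052 and 200, with a size limit of 1 they were 135, 530, 36, 60, 319, 70 and 39, and with an unadjusted p and a size limit of 1 they were 146, 594, 40, 69, 361, 73 and 41. With limma on log2(FPKM + 1), calls below additivity numbered 564, beyond lowered 79 and saturating raised 401. On the linear scale, calls above additivity numbered 2066, beyond raised 300 and saturating lowered 1454. The cause of these changes was not tested beyond the change of limit that the first 3 settings make. Leaving out 1 library gave 1037 to 1096, 1315 to 1453, 110 to 151, 141 to 173, 851 to 957, 706 to 776 and 103 to 138. Of 26 named genes, 23 kept both their side and their call under every alternative that gave a value. On the linear scale EDN2 turned to 0.8168 and DHRS9, at -0.3886, was no longer called, and ADGRF2 was no longer called without DMSO replicate 1 and SGI replicate 3. Under upper-quartile scaling 13 counts of list members moved by over 1.5 times, under each of the other filters 4, without DMSO replicate 1 and SGI replicate 3 together 3, and under DESeq2 and the replicate block none.

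Replicate numbers did not pair the libraries. The correlation of deviations between libraries of the same number lay from -0.34 to 0.087 over 18 pairs and that of different number reached 0.43, and 0 of 12 libraries correlated best with their own number. With the replicate block the counts were 1052, 1391, 130, 157, 908, 736 and 119, and no named gene changed its call.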
